A study of Mus musculus with 24 samples.

Results

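The libraries described here come from CALM-AF10 leukemia cells of the mouse in which the gene of the tyrosine kinase JAK1 was labelled either floxed or deleted. They are 6 of the 24 libraries of the series, 3 labelled Jak1 floxed and 3 labelled null with the genotype Jak1 deleted, and they were chosen by those labels and not by any measured value. All 24421 genes of their count table were taken as members, and 11607 of them had enough counts to be tested. Both groups carried the CALM-AF10 fusion on the C57BL/6 background, are labelled as bone marrow leukemia cells, and were grown in DMEM with 15% serum and the cytokines SCF at 20, IL3 at 6 and IL6 at 100 ng per ml. The floxed libraries are named for the vehicle DMSO in the table, and the null libraries are labelled as deleted by Cre-ER, a recombinase switched on by 4-hydroxytamoxifen. The series asked which genes JAK1 regulates in these cells. The sources used here do not give the dose, the time after deletion or the deleted exons. Cells given 4-hydroxytamoxifen without a floxed Jak1 were not analysed here, so deletion, drug and Cre activity cannot be told apart. No label states that replicates were grown as separate cultures. The p-values may therefore rest on technical spread alone.

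JAK1 belongs to the Janus kinases, which sit on the inner side of cytokine receptors that have no kinase of their own. When a cytokine such as IL6 or an interferon binds, the kinases phosphorylate the receptor and then the STAT proteins, which enter the nucleus and switch on target genes. Among those targets are the SOCS proteins and CIS, which act back on the receptor as inhibitors. Receptors for IL3 and GM-CSF are best known for signaling through JAK2, and the SCF receptor KIT is a tyrosine kinase itself.

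The libraries held between 11743388 and 13764632 counts each. Levels below are TMM-normalized counts, scaled to a library of 12504111 counts, and each set of 3 values is listed for replicates 1, 2 and 3 in that order. Fold changes are null over floxed on the log2 scale with the standard error (SE). Adjusted p-values are from edgeR's quasi-likelihood test with Benjamini-Hochberg adjustment over all 11607 genes. The SE was calculated as the absolute log2 fold change over the square root of that test's F statistic. It is therefore not independent of the p-value. A gene was called under an adjusted p of 0.05. The common coefficient of variation between replicates, beyond counting noise, was 3.12%, and small shifts passed the test. Of all genes tested 27.4% were called higher and 28.3% lower in the null libraries, 55.7% in either direction. Calls with at least a 2-fold change were fewer, 7.3% in either direction, 1.67% higher and 5.63% lower. The groups did not overlap in 60.8% of genes. Counts of list members called, given below, are to be read beside these shares. Some genes stand on more than 1 list, such as Bnip3, Il4ra and Socs3, so counts of different lists are not independent. Myeloid genes such as Ptprc, Cebpa, Elane, Itgam and Mpo were present in all 6 libraries, and Cd34 was low, at 65.1, 54.8 and 75.1 in the floxed libraries. Along a stretch of chromosome 2 and on chromosome Y many genes were lower in the null libraries, as described at the end, and a gene from there is marked as such.

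The count of Jak1 itself was lower in every null library, but by little. Jak1 lies on the minus strand of mm9 chromosome 4, from 100824972 to 100937887. It stood at 2447, 2439.7 and 2476 in the floxed libraries and 2070, 1916 and 1930 in the null libraries. The groups did not overlap, and the null mean was 1.24-fold lower (log2 fold change −0.32, SE 0.037, adjusted p = 2.00e-08). The table counts the whole gene and not single exons, so undeleted cells and transcripts that keep the remaining exons cannot be told apart in this value. The libraries named null are therefore called so after their label throughout.

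Of the other Janus kinase genes none rose. Jak2, which serves the receptors for IL3, GM-CSF and growth hormone, read 1082, 992 and 1057 in the floxed libraries and 925, 859.7 and 894 in the null libraries (log2 fold change −0.22, adjusted p = 2.45e-04). Jak3, the partner of JAK1 at the common gamma chain, read 534, 583 and 506 in the floxed libraries and 469, 470.2 and 509.6 in the null libraries. The Jak3 groups overlapped, and its call (−0.17, adjusted p = 0.0177) was lost with DESeq2 and without floxed 2, null 1 or null 2 (adjusted p from 0.0639 to 0.171). Tyk2, which pairs with JAK1 at interferon and IL6-type receptors, read 1552, 1614 and 1544 in the floxed libraries and 1574, 1571 and 1551 in the null libraries and was not called (−0.01, adjusted p = 0.914). Per kilobase of exon, the floxed cells held 339.6 ± 2.66 normalized counts of Jak1 and 341 ± 8.33 of Tyk2, against 207 ± 9.25 of Jak2 and 101 ± 7.34 of Jak3 (mean ± SD, n = 3 libraries).

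Among the signal transducers 5 of the 6 STAT genes described here fell. Stat4, which relays IL12 and interferon signals, moved most and went from 482 ± 45.7 to 205 ± 7.55 (SD, n = 3), with 529.6, 438 and 479 in the floxed libraries and 202, 199.7 and 214 in the null libraries. Its log2 fold change was −1.23 (SE 0.077, adjusted p = 1.92e-14), and the null libraries lay far below the floxed ones. The other falls were those of Stat6, the transducer of IL4 and IL13 (−0.27), Stat2 of the interferon complex (−0.21), Stat5b (−0.14) and the IL6 transducer Stat3 (−0.11). Stat5a, at 0.06, was not called (adjusted p = 0.274). Apart from Stat4, these shifts were all under 2-fold.

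Negative regulators of cytokine signaling changed in both directions. Their list holds the feedback inhibitors Cish and the Socs genes and also others, such as the phosphatase genes Ptpn1, Ptpn2 and Ptpn6. Of 20 negative regulators tested 10 fell, 5 rose and 5 were not called. The falls made up 50% and the rises 25%, beside 28.3% and 27.4% of all genes. The median log2 fold change of the list was −0.18 against 0.01 for all genes. The rises were 3 with DESeq2 and without floxed 2. Cish, which encodes CIS, an inhibitor of STAT5 signaling, read 2272, 2282 and 2215 in the floxed libraries and 1578, 1517 and 1570.3 in the null libraries. It fell by 0.54 (SE 0.037, adjusted p = 2.29e-13). Socs3, which blocks the IL6 and G-CSF receptors, read 711, 628 and 691 in the floxed libraries and 553, 471 and 512 in the null libraries, a log2 fold change of −0.40 (adjusted p = 1.06e-06). In both genes all null libraries lay below all floxed libraries. Socs2, an inhibitor of growth hormone signaling, went the other way and read 791, 678 and 785 in the floxed libraries and 879, 957 and 983 in the null libraries (0.33, adjusted p = 1.06e-05). Socs6 (−0.39) and Socs5 (−0.33) fell, and Socs4 was not called (−0.13, adjusted p = 0.257). The Socs5 call was lost without floxed 1 or null 3 (adjusted p 0.0667 and 0.0958), and Socs7, called higher at 0.13, was lost under 5 settings (adjusted p from 0.099 to 0.212). Socs1, the main brake on interferon signaling, was near the threshold at −0.24 (adjusted p = 0.0479) and was lost under 11 of the 12 alternative settings (adjusted p from 0.0524 to 0.187). The phosphatase genes Ptpn2 (−0.40), Ptpn1 (−0.32) and Ptpn6 (−0.25), whose products remove phosphate from Janus kinases and receptors, fell too. Bcl6, a repressor of many STAT target genes that was picked out after its values were seen, rose from a low level, with 11.7, 19.2 and 15.9 in the floxed libraries and 56.1, 34.4 and 50.3 in the null libraries (1.56, SE 0.25).

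**Figure D1:**
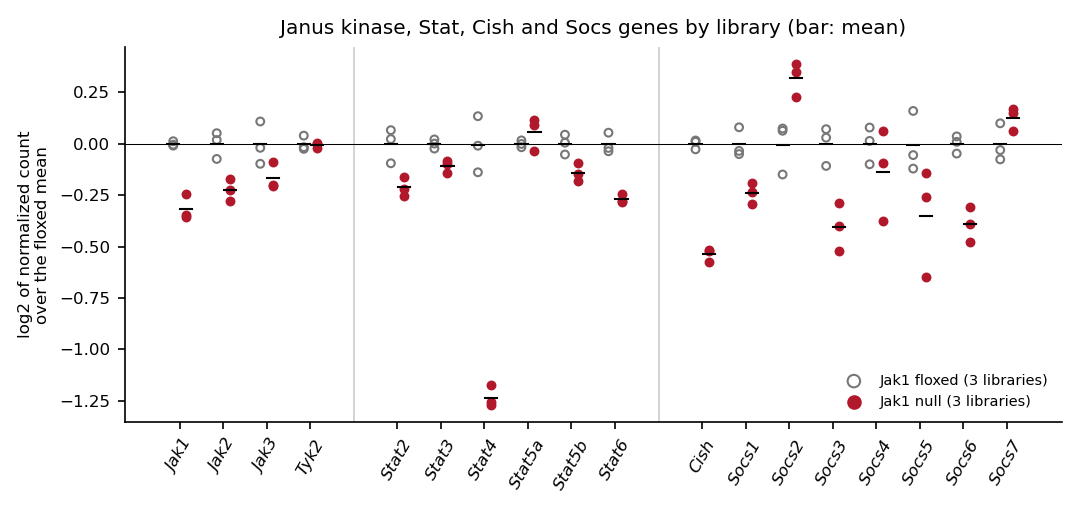
Levels of the Janus kinase, Stat, Cish and Socs genes in each library, as the log2 of the normalized count over the mean of the floxed libraries; open circles are the 3 floxed libraries, filled circles the 3 null libraries, and bars the group means. Stat4 lies lowest among the null values at about −1.23, Cish at −0.54 and Jak1 at −0.32, whereas Socs2 lies above the floxed libraries at 0.33.

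Receptor genes changed in both directions. Of 22 tested genes whose receptors use JAK1, 9 rose and 6 fell, 40.9% and 27.3%, beside 27.4% and 28.3% of all genes, and their median was 0.16. The receptor chains for IL2 and IL4 fell most. Il2ra, the alpha chain of the IL2 receptor, read 1142, 1224 and 1139 in the floxed libraries and 444, 474 and 463 in the null libraries. Il4ra, shared by the IL4 and IL13 receptors, read 1638, 1647 and 1623 in the floxed libraries and 835, 755 and 777 in the null libraries. Both means were more than 2-fold lower in the null libraries, with log2 fold changes of −1.34 ± 0.05 and −1.05 ± 0.045 (SE). Il13ra1, the second chain of the IL13 receptor, fell by 0.54.

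Several receptor genes of the IL6 and G-CSF type rose. Csf3r, the G-CSF receptor of granulocytes, read 184, 206 and 167 in the floxed libraries and 603, 542 and 614 in the null libraries. Il6ra, the IL6-binding chain, read 218, 282 and 285 in the floxed libraries and 633, 622 and 636 in the null libraries. Il27ra, a chain of the IL27 receptor, was low throughout and read 16.0, 11.9 and 13.8 in the floxed libraries and 38.7, 45.2 and 27.1 in the null libraries. Their log2 fold changes were 1.65 ± 0.076, 1.26 ± 0.071 and 1.42 ± 0.27 (SE), with no overlap between the groups. The interferon receptor chains Ifngr1 (0.40) and Ifnar2 (0.52) and the IL21 receptor Il21r (0.65) rose less, and the signaling chain Il6st was not called (0.31, adjusted p = 0.131). Il20rb, Il10ra and Il15ra were called lower and Il10rb, Crlf2 and Ifnlr1 higher, and each of these 6 calls was lost under at least 1 other setting. With DESeq2, and also without floxed 3, only 3 genes of this list were lower.

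Of 7 tested genes of receptors best known for JAK2, 4 fell and 1 rose, 57.1% and 14.3% beside 28.3% and 27.4% of all genes. Ghr, the growth hormone receptor, read 328, 375 and 349 in the floxed libraries and 186, 182 and 177 in the null libraries (−0.95, adjusted p = 1.91e-11). The other falls were those of Il12rb2 (−0.79), the mouse-specific IL3 receptor chain Csf2rb2 (−0.27) and Il3ra (−0.19). The shared beta chain Csf2rb was not called (−0.06, adjusted p = 0.102), and Csf2ra, called higher at 0.11, was lost without floxed 3 (adjusted p = 0.0638). Csf2rb and Csf2rb2 are close copies, so that reads may be split between them by the authors' counting.

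Receptors that carry their own kinase rose in 5 of 9 cases and fell in 3, 55.6% and 33.3% beside 27.4% and 28.3% of all genes. Flt3, the receptor for FLT3 ligand on progenitors, read 79.0, 116 and 110.0 in the floxed libraries and 707, 674 and 643 in the null libraries. Csf1r, the receptor for M-CSF on monocytes, read 95.0, 95.9 and 97.4 in the floxed libraries and 356, 347 and 358 in the null libraries. Kit, the SCF receptor, read 534, 510.4 and 546 in the floxed libraries and 734, 799.7 and 806 in the null libraries. The log2 fold changes were 2.72 ± 0.087, 1.88 ± 0.089 and 0.56 ± 0.051 (SE). The rise of Flt3 was the second largest among called genes with at least 200 normalized counts in a group, predicted genes left out. Pdgfrb (1.36) and Met (0.68) rose as well, whereas the insulin-like growth factor receptor Igf1r (−0.42) and the insulin receptor Insr (−0.41) fell. Insr and Tyro3 were named after their values were seen. Tyro3 fell by 1.5 and lies in the chromosome 2 stretch.

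Most STAT5 targets fell. Of 22 tested 16 fell and 3 rose, 72.7% and 13.6% beside 28.3% and 27.4% of all genes, with a median of −0.34. Ccnd3, which encodes the G1 cyclin D3, read 6753, 6842 and 6776 in the floxed libraries and 4042, 3908 and 4055 in the null libraries. Bcl2l1, which encodes the survival protein BCL-XL, read 813, 856 and 849.7 in the floxed libraries and 515, 473 and 561 in the null libraries. Lrrc32, a membrane protein that holds latent TGF-beta, read 31.0, 43.8 and 30.7 in the floxed libraries and 4.08, 1.97 and 1.93 in the null libraries. The log2 fold changes were −0.76, −0.70 and −3.69, and no null library reached a floxed one. Pim2, a kinase that STAT5 induces, fell by 0.52, and its relative Pim1 fell by 0.11. Cdkn1a (−0.55), Ccnd2 (−0.37), Dusp5 (−0.61), Osm (−0.30) and Mcl1 (−0.22) fell as well. Bcl2, the survival gene that names its family, rose, with 562, 569 and 546 in the floxed libraries and 976, 992 and 892 in the null libraries (0.77, SE 0.051). Myc, at 0.04, was not called (adjusted p = 0.358). The rise of Ccnd1, at 0.43, was lost with DESeq2 and without floxed 3 or null 3 (adjusted p from 0.0542 to 0.0706). The remaining rise on this list was that of Socs2 (0.33, adjusted p = 1.06e-05), described above among the negative regulators. The counted falls include Socs1 (−0.24), whose call was lost under 11 settings, and Spry1 (−0.25), whose call was lost under 3.

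Csn2, which encodes beta-casein and is a classical STAT5 target of the mammary gland, was not on the list and was noted after its values were seen. It read 5156, 4638 and 4711 in the floxed libraries and 772, 735 and 755 in the null libraries. The null libraries held 6.41-fold fewer normalized counts (log2 fold change −2.68, SE 0.043, adjusted p = 2.19e-29). The 250 bases upstream of the starts of Csn2 and Socs3, from RefSeq on GRCm38.p6, each hold 1 match to TTCNNNGAA, the letters that STAT5 and STAT3 sites share, here in capitals and written 5′ to 3′ on the gene's strand. They are shown because Csn2 and Socs3 are classical STAT targets that fell, and both were picked after their values were seen. The windows are chr5:87699426-87699675 (minus strand) and chr11:117969367-117969616 (minus strand).
Csn2: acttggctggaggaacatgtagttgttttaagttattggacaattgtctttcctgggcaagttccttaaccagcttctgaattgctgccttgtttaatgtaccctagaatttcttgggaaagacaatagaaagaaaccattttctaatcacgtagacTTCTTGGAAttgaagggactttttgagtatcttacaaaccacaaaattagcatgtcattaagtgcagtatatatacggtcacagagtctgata
Socs3: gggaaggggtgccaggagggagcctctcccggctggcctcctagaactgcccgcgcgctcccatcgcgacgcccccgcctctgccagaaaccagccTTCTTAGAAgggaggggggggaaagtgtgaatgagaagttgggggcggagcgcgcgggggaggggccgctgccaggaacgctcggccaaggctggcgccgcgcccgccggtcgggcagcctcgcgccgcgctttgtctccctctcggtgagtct
The match starts 93 bases before the start of Csn2 and 154 bases before that of Socs3. The same letters, which read alike on both strands, occur upstream of 8.13% of all 27025 genes with such a window, of 7.31% of the 8927 tested genes that have one, of 7.87% of the 483 genes that fell at least 2-fold and of 10.7% of the 140 that rose at least 2-fold. Of the 16 STAT5 targets that fell, 12 had a window in the table, and 1 of the 12 held the match (8.33%). A match is a description of the sequence and not a binding site.

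Genes that STAT6 switches on in macrophages given IL4 held some of the deepest falls. All 13 tested genes of this list were called, 11 lower and 2 higher, with a median of −1.05. The shares were 84.6% and 15.4%, beside 28.3% and 27.4% of all genes, and without a filter on low counts the rises were 4. Tgm2, which encodes a protein-crosslinking transglutaminase, went from 3161 ± 179.7 to 16.2 ± 6.69 (SD, n = 3), with 3013, 3361 and 3109 in the floxed libraries and 14.3, 23.6 and 10.6 in the null libraries. Arg1, the arginase of alternatively activated macrophages, read 113, 137 and 97.4 in the floxed libraries and 1.02, 1.97 and 4.83 in the null libraries. Clec10a, a lectin receptor of macrophages and dendritic cells, read 122, 159.8 and 116 in the floxed libraries and 16.3, 23.6 and 22.2 in the null libraries. The log2 fold changes were −7.60, −5.4 and −2.68 (SE 0.094, 0.30 and 0.19), and the null values of Arg1 rest on few counts. Retnla, a secreted product of the same macrophages, read 38.4, 33.8 and 25.4 in the floxed libraries and 0 in all null libraries. Over the group that is 97 counts against 0, at least 32.9-fold lower when the null group is set to a floor of 3 counts in all. Mrc1, the mannose receptor of macrophages (1.42), and Klf4, a transcription factor of monocytes (2.68), rose from low levels and were named after their values were seen. IL4 is not among the cytokines that the labels list for the medium.

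The upstream window of Retnla, at chr16:48842359-48842608 on the plus strand of GRCm38.p6, holds the STAT6-type letters TTCNNNNGAA 145 bases before its start.
Retnla: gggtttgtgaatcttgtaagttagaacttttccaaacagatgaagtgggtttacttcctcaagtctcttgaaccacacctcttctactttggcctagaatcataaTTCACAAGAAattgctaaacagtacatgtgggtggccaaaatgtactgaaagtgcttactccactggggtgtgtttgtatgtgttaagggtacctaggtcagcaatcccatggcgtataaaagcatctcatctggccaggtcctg
These letters, the same on both strands, occur upstream of 6.76% of all genes with a window, 5.63% of tested genes, 7.04% of those that fell at least 2-fold and 8.57% of those that rose at least 2-fold. Of the 11 STAT6 targets that fell, 6 had a window in the table, and 1 of the 6 held the match.

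Of 26 STAT3 targets tested 14 fell and 5 rose, 53.8% and 19.2% beside 28.3% and 27.4% of all genes, with a median of −0.11. Cd14, the monocyte receptor for bacterial lipopolysaccharide, read 1186, 1166 and 1106 in the floxed libraries and 422, 410.2 and 423 in the null libraries. Vegfa, the vascular growth factor, read 1961, 2075 and 2009.5 in the floxed libraries and 999, 947 and 1028 in the null libraries. Both were reduced at least 2-fold (−1.46 ± 0.05 and −1.02 ± 0.042, SE). The transcription factor gene Cebpb fell by 0.71, and the gelatinase gene Mmp9 rose by 0.41.

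Genes of the type I interferon response were mostly lower. No interferon is among the cytokines that the labels list for the medium. Of 43 genes tested 27 fell and 7 rose, 62.8% and 16.3% beside 28.3% and 27.4% of all genes, with a median of −0.46. Of the falls 12 were at least 2-fold, 27.9% of the tested members beside 5.63% of all genes. Zbp1, a sensor of unusual nucleic acids, read 244, 292 and 244 in the floxed libraries and 38.7, 46.2 and 42.5 in the null libraries. Oas3, which makes the activator of the antiviral nuclease RNase L, read 185, 202 and 193 in the floxed libraries and 23.4, 37.4 and 33.8 in the null libraries. Oasl2, a relative of Oas3, read 255, 274 and 288 in the floxed libraries and 49.9, 65.9 and 59.9 in the null libraries. All 3 fell more than 4-fold in the mean, with log2 fold changes of −2.62 ± 0.13, −2.61 ± 0.14 and −2.21 ± 0.11 (SE). Samd9l, a growth-restraining interferon-induced gene, went from 756 ± 47.9 to 284 ± 33.9 (SD, n = 3), a log2 fold change of −1.41. Tor3a rose by 0.69, and the 7 rises became 4 with DESeq2, without floxed 1 or without null 1. Usp18, named after its values were seen, which is both an interferon-induced gene and a brake on the type I receptor, was low and read 24.6, 24.7 and 16.9 in the floxed libraries and 9.17, 3.93 and 4.83 in the null libraries (−1.88, SE 0.36).

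Genes of interferon gamma and antigen presentation did not follow a common direction, with 15 of 37 higher, 11 lower and a median of 0.06. The shares were 40.5% and 29.7%, beside 27.4% and 28.3% of all genes. Gbp4, an interferon-induced GTPase, fell by 5.55, whereas its relative Gbp3 rose by 1.04. Irf8, a transcription factor of monocytes and dendritic cells, read 794, 831 and 837 in the floxed libraries and 1889.6, 1676 and 1819 in the null libraries (1.13, adjusted p = 7.31e-19). Nlrc5, an activator of MHC class I genes (0.71), and the class I gene H2-Q4 (0.81) rose. The guanylate-binding protein and class I genes have near-identical copies, so their single values are uncertain.

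Ranked by size were called genes without overlap and with at least 200 normalized counts in a group. Predicted genes and small RNA entries were left out. In this ranking the largest falls went far beyond 2-fold. After Tgm2 came Bpifc, a lipid-binding family member, with 331, 312 and 352 in the floxed libraries and 4.08, 2.95 and 5.80 in the null libraries. Tgfb2, a secreted growth and differentiation factor, read 1014, 1027 and 972 in the floxed libraries and 23.4, 31.5 and 23.2 in the null libraries. Scd1, the enzyme that makes monounsaturated fatty acids, read 2218, 2068 and 2114 in the floxed libraries and 63.2, 137 and 104 in the null libraries. All null libraries lay more than 10-fold below the floxed mean of these genes, and the log2 fold changes were −6.23 ± 0.18, −5.26 ± 0.091 and −4.39 ± 0.091 (SE). The next were Olfml2b (−3.81), Rgs11 of the G-protein regulators (−3.78), the alarmin cytokine Il33 (−3.40), Thbs1 (−3.34), the calcium-binding protein Ocm (−3.33), the transcription factor Bhlhe40 (−3.17), Uaca (−3.15), the cholesterol exporter Abca1 (−2.86), the Wnt antagonist Frzb (−2.81) and Slc16a3 (−2.80). Thbs1, the matrix protein thrombospondin, was abundant, with 12092, 12835 and 12222 in the floxed libraries and 1196, 1197 and 1284 in the null libraries. Thbs1 and Frzb lie in the chromosome 2 stretch, and their falls were far larger than the median of −0.30 there. Bhlhe40, which cytokines induce in several blood cell types, read 2712, 2968 and 2716 in the floxed libraries and 309.8, 314 and 312 in the null libraries.

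The largest rises were smaller than the largest falls, 2.86 at most on the log2 scale among the genes ranked in the same way. Igll1, a part of the surrogate light chain of early B cells, read 151, 138 and 129 in the floxed libraries and 994, 1011 and 1033 in the null libraries (2.86, SE 0.063). Its partner Vpreb1, picked out after its values were seen, read 13.9, 11.9 and 23.3 in the floxed libraries and 81.5, 108 and 104 in the null libraries (2.60). Both groups were far apart in either gene. Of 5 tested genes of the B cell list 3 rose, 60% beside 27.4% of all genes, and 0 fell. The third rise was that of Cd72, from a low level (0.99, adjusted p = 0.00416). The B cell genes Pax5 and Ms4a1 and the lymphoid genes Rag1 and Dntt had 0 counts in all 6 libraries. Cd79a, Cd22 and Blnk, also B cell genes, had 34, 23 and 16 counts over all libraries and were not tested. After Flt3 followed Ednra, an endothelin receptor (2.36), the integrin chain Itgad (2.25), the actin-severing protein gene Scin (2.17), the protease gene Asprv1 (2.17), Far2 (2.15), Lypd6 (2.14), Adgrg1 (2.12), Ms4a6c (2.11), the PI3-kinase inhibitor Pik3ip1 (2.07), Mpo (2.0), Ms4a6b (1.97) and the retinol carrier Rbp4 (1.97). Adgrg1, an adhesion receptor of stem and progenitor cells, read 265, 248 and 276 in the floxed libraries and 1156, 1129 and 1151 in the null libraries. Ms4a6b and Ms4a6c are near-identical copies, so that the counting may have moved reads between them.

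**Figure D2:**
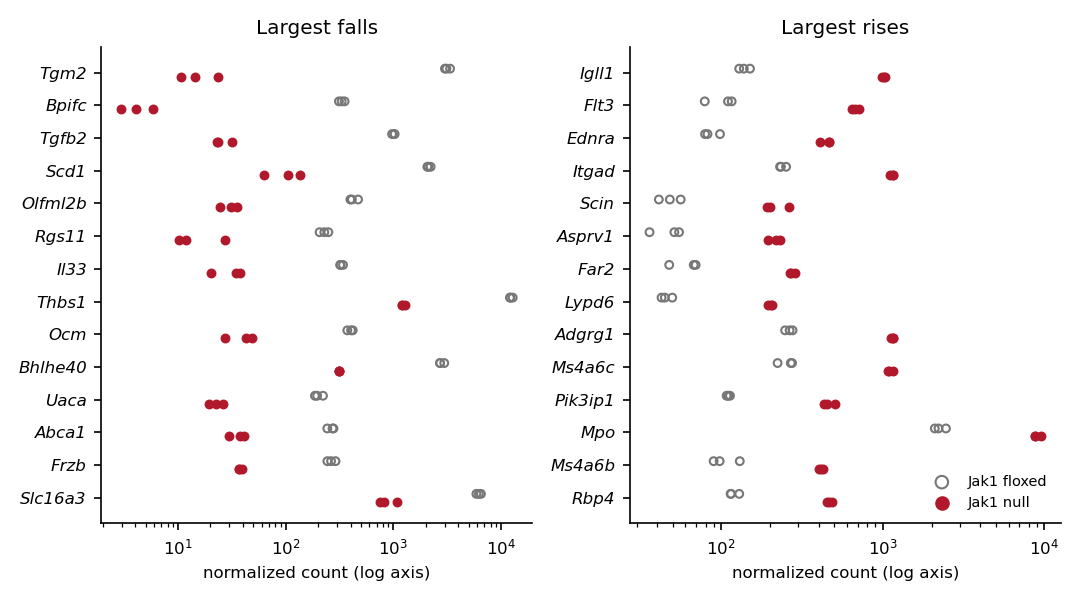
Normalized counts (log axis) in each library for the 14 largest falls and the 14 largest rises. Ranked were called genes with at least 200 normalized counts in a group and no overlap between groups, predicted genes left out. Open circles are floxed and filled circles null libraries. The fall of Tgm2 is the widest, from a floxed mean of 3161 to a null mean of 16.2, and that of Igll1 is the widest rise, from 139 to 1012.

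Genes of glycolysis and the hypoxia response fell almost as a whole. Of 38 tested 36 fell and 1 rose, 94.7% and 2.63% beside 28.3% and 27.4% of all genes, with a median of −0.98. Of the falls 19 were at least 2-fold, 50% of the tested members beside 5.63% of all genes. Outside the chromosome 2 stretch the counts were 35 lower and 1 higher of 37. Slc16a3, the transporter that exports lactate, read 6506, 6224 and 5904 in the floxed libraries and 758, 824 and 1086 in the null libraries. Bnip3, a mitophagy receptor that hypoxia induces, read 1605, 1575 and 1577 in the floxed libraries and 180.4, 207 and 295 in the null libraries. Pgk1, the glycolytic phosphoglycerate kinase, read 8689, 9041 and 8111 in the floxed libraries and 3295, 3463 and 3656 in the null libraries. None of the null values came near the floxed ones, and the log2 fold changes were −2.80, −2.80 and −1.31, or falls of 6.97-fold, 6.95-fold and 2.48-fold. The abundant aldolase gene Aldoa went from 37433 ± 642 to 16604 ± 1040 (SD, n = 3), with a log2 fold change of −1.17, and the phosphofructokinase gene Pfkl fell by 1.35. Adm, a vasodilator peptide picked out after its values were seen, read 73.7, 88.6 and 89.9 in the floxed libraries and 4.08, 5.90 and 0 in the null libraries. P4ha2, a collagen hydroxylase gene picked out in the same way, read 67.3, 60.3 and 56.1 in the floxed libraries and 1.02, 2.95 and 2.90 in the null libraries. The only rise was that of Pfkfb3, which makes an activator of glycolysis (0.27, adjusted p = 2.68e-06), and Pfkfb4 was not called. Hif1a, the hypoxia-stabilized transcription factor itself, fell by 0.13. Gapdh, often used as a reference gene, fell by 0.76. Hif1a, Pfkfb3 and Pfkfb4 were named after their values were seen.

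The letters ACGTG, the core of the site that HIF1 and other basic helix-loop-helix factors bind, were searched on both strands upstream of these genes. The windows of Bnip3, at chr7:138909507-138909756 on the minus strand, and Slc16a3, at chr11:120948817-120949066 on the plus strand of GRCm38.p6, are shown because these 2 genes had the smallest adjusted p of the list.
Bnip3: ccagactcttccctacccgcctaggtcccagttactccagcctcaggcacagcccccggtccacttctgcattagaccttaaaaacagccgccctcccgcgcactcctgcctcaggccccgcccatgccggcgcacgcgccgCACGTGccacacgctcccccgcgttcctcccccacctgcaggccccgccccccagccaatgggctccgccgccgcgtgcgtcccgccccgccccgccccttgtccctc
Slc16a3: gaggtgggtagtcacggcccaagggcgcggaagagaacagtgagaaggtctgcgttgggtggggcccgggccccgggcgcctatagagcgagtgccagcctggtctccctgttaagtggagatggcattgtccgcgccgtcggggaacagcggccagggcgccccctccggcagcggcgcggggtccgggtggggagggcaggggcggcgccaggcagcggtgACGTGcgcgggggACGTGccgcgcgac
In Bnip3 the matches on the 2 strands overlap and start 108 and 107 bases before the start, and in Slc16a3 there are 2 matches, 27 and 14 bases before it. Of the 36 fallen glycolysis and hypoxia genes 33 had a window, and 22 of the 33, or 66.7%, held the letters. The share was 25.7% among the tested genes with a window, 25.7% among those that fell at least 2-fold, and 18.5% among all 27025. Since 36 of the 38 tested members of this list fell, the 66.7% describes the list as chosen and cannot be tied to the fall. No factor binding was measured.

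Lipid synthesis genes fell with them. In the cholesterol list, which also holds exporter genes, 24 of 28 fell and 0 rose, with a median of −0.55. That is 85.7% lower, beside 28.3% of all genes. Lss, which closes the sterol ring, read 1907, 1768 and 1841 in the floxed libraries and 858, 847 and 848 in the null libraries. Fdps, which makes farnesyl diphosphate, read 3900.3, 3860.4 and 3828 in the floxed libraries and 2198, 2265 and 2276 in the null libraries. The 2 groups were apart in both genes (−1.11 ± 0.043 and −0.78 ± 0.033, SE), and Mvd (−1.0) and the exporters Abca1 and Abcg1 (−1.5) fell too. In the fatty acid list 14 of 21 fell and 5 rose, 66.7% and 23.8% beside 28.3% and 27.4% of all genes. Scd2, which has the same activity as Scd1, read 23296, 21998 and 22146 in the floxed libraries and 5976, 7606 and 6993 in the null libraries, a log2 fold change of −1.71. The fatty acid synthase gene Fasn fell by 0.68, and the desaturase gene Fads2 (−1.19) and Srebf1, the transcription factor of lipid synthesis (−0.75), fell as well.

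The ATF4 response to amino acid shortage and stress was lower as well, with 27 of 31 genes down, 0 up and a median of −0.41. That is 87.1% lower, beside 28.3% of all genes. Stc2, a secreted glycoprotein of the stress response, read 824, 779.8 and 722 in the floxed libraries and 138, 182 and 202 in the null libraries. Trib3, a pseudokinase that ATF4 and its partners induce, read 298, 290.4 and 302 in the floxed libraries and 70.3, 75.7 and 72.5 in the null libraries. Ddit4, an inhibitor of the growth kinase mTORC1, read 454, 539.6 and 513 in the floxed libraries and 170.2, 178 and 161 in the null libraries. These 3 had log2 fold changes of −2.15, −2.02 and −1.57, and no null library overlapped the floxed ones. The transcription factor gene Atf3 (−2.07) and the translation repressor gene Eif4ebp1 (−0.69) fell as well.

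Early response genes and feedback genes of the ERK pathway fell in 22 of 31 cases and rose in 4, with a median of −0.36. The shares were 71% and 12.9%, beside 28.3% and 27.4% of all genes. Etv5, a transcription factor induced by ERK signaling, read 479, 495 and 503 in the floxed libraries and 112, 132 and 141 in the null libraries. Its relative Etv4 read 667, 671.1 and 648 in the floxed libraries and 179, 208 and 192 in the null libraries. Fosl1, a member of the AP-1 family, read 228, 231 and 186 in the floxed libraries and 49.9, 59.0 and 45.4 in the null libraries. All 3 fell more than 3-fold in the mean (−1.94 ± 0.082, −1.78 ± 0.066 and −2.07 ± 0.13, SE), and Jund fell by 1.03. Fos and Fosb, also AP-1 genes and named after their values were seen, went the other way from low levels. Fos read 23.5, 17.3 and 18.0 in the floxed libraries and 80.5, 71.8 and 64.8 in the null libraries (1.88). Fosb read 12.8, 19.2 and 13.8 in the floxed libraries and 97.8, 42.3 and 28.0 in the null libraries, and its null libraries differed more from each other than those of Fos.

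Inflammatory genes of the NF-kB type fell in 15 of 29 cases and rose in 4, with a median of −0.24. The shares were 51.7% and 13.8%, beside 28.3% and 27.4% of all genes. The rises were 2 without floxed 2. The chemokine gene Ccl3 read 3474, 3489.7 and 3425 in the floxed libraries and 964, 1076 and 1014 in the null libraries. Ccl4, which encodes a related chemokine, read 515, 632 and 579 in the floxed libraries and 71.3, 94.4 and 90.9 in the null libraries. Nlrp3, the sensor of the inflammasome, read 716, 646 and 687 in the floxed libraries and 108, 119 and 103 in the null libraries. Their log2 fold changes were −1.77, −2.75 and −2.63. Csf1, which encodes M-CSF, the ligand of the raised Csf1r, read 661, 728 and 689 in the floxed libraries and 165, 161 and 177 in the null libraries (−2.05, SE 0.068). The inducible cyclooxygenase gene Ptgs2 fell by 2.99. Of 18 eicosanoid genes 12 fell and 2 rose, 66.7% and 11.1% beside 28.3% and 27.4% of all genes. Among the falls were those of the thromboxane synthase Tbxas1 (−1.45), the 5-lipoxygenase Alox5 (−1.03) and Hpgd, which breaks down prostaglandins (−0.68).

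Of the cytokines the cells expressed themselves, 5 of 8 tested fell and 1 rose, 62.5% and 12.5% beside 28.3% and 27.4% of all genes. Lif, a cytokine of the IL6 family whose receptor uses JAK1, read 172, 196 and 187 in the floxed libraries and 54.0, 67.9 and 63.8 in the null libraries (−1.58, SE 0.12). Osm, another member of that family, fell by 0.30, and Tslp rose by 0.73. Of 16 chemokine receptor genes 10 were lower and 5 higher, 62.5% and 31.2% beside 28.3% and 27.4% of all genes. Ccr3, the eotaxin receptor, read 133, 149 and 126 in the floxed libraries and 3.06, 2.95 and 0 in the null libraries, a log2 fold change of −6.02 that rests on few null counts. Ccr1 (−0.93), C5ar1 (−1.28) and Cxcr2 (−0.88), receptors by which neutrophils and monocytes follow chemokines and complement, fell, while the monocyte receptor Ccr2 rose by 0.47. Cx3cr1, a receptor of patrolling monocytes picked out after its values were seen, read 4.27, 5.48 and 3.17 in the floxed libraries and 28.5, 35.4 and 28.0 in the null libraries (2.78).

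DNA replication genes rose slightly and together. Of 42 tested 34 rose and 1 fell, 81% and 2.38% beside 27.4% and 28.3% of all genes. None changed by 2-fold, and the median was 0.22. Mcm6, a subunit of the replicative helicase, read 5052, 5208 and 5358 in the floxed libraries and 7738, 7625 and 7541 in the null libraries. Mcm5 (0.42), Mcm7 (0.33) and the primase gene Prim1 (0.46) rose as well. The single fall was that of Dut (−0.38), which lies in the chromosome 2 stretch. Genes of mitosis split into 13 higher and 9 lower of 36, with a median of −0.02. The shares were 36.1% and 25%, beside 27.4% and 28.3% of all genes.

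The G1 regulators fell in 12 of 23 cases and rose in 7, 52.2% and 30.4% beside 28.3% and 27.4% of all genes. Inhibitors of cyclin-dependent kinases were among the falls. The rises were 4 with DESeq2 and without null 3. Cdkn2c, which encodes the CDK4 and CDK6 inhibitor p18, read 1101, 1078 and 1016 in the floxed libraries and 337, 311 and 320.1 in the null libraries (−1.72, SE 0.052). Cdkn2d, which encodes p19 (−0.61), and Cdk6 (−0.51) fell too. In the BCL2 and cell death list 15 of 25 fell and 3 rose, 60% and 12% beside 28.3% and 27.4% of all genes. Bnip3l (−0.77) and Pmaip1 (−0.35) were among the falls. Bnip3 and Bcl2l1 were also among them, and they were counted above in the hypoxia and STAT5 lists too. Ribosomal protein genes rose in 45 of 65 cases, 69.2% beside 27.4% of all genes, and fell in 0. Shifts were slight in these genes, with a median of 0.13. Under the 12 alternative settings 35 to 48 of them were higher and 0 lower. Rpl9 rose by 0.27. Ribosome assembly genes rose in 29 of 41 cases and fell in 1, 70.7% and 2.44% beside 27.4% and 28.3% of all genes. Wdr12 (0.41) and the small nucleolar RNA-binding protein Gar1 (0.41) were among the rises.

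Myeloid differentiation genes shifted by class. Primary granule genes, which promyelocytes express, rose in 11 of 14 cases and fell in 1, with a median of 0.44. The shares were 78.6% and 7.14%, beside 27.4% and 28.3% of all genes. Mpo, which encodes myeloperoxidase, read 2208, 2096 and 2455 in the floxed libraries and 9549, 8703 and 8729 in the null libraries. Ctsg, the protease cathepsin G, read 22208, 21304 and 22120 in the floxed libraries and 31591, 31928 and 30085 in the null libraries. Cst7, a protease inhibitor, read 1157, 1122 and 1240.2 in the floxed libraries and 2117, 2192 and 2178 in the null libraries. Mpo rose 4-fold, whereas Ctsg and Cst7 rose by 0.51 and 0.88 on the log2 scale. In a bulk culture, fewer or more cells of a stage and less or more RNA per cell cannot be told apart.

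Secondary granule and neutrophil genes split, with 13 of 37 higher, 19 lower and a median of −0.15. The shares were 35.1% and 51.4%, beside 27.4% and 28.3% of all genes. Ltf, which encodes lactoferrin, read 2004, 2035 and 2018 in the floxed libraries and 5643, 5256 and 5432 in the null libraries. Mmp8, the neutrophil collagenase, read 499, 512 and 556 in the floxed libraries and 1728, 1604 and 1679.5 in the null libraries. Cd177, a neutrophil surface antigen, read 5726, 5558 and 5441 in the floxed libraries and 3222, 3061 and 3141 in the null libraries. The first 2 rose (1.43 ± 0.034 and 1.68 ± 0.049, SE) and Cd177 fell (−0.83 ± 0.033). Stfa1 and BC100530, stefin genes with near-identical copies, fell (−1.71 and −1.52). Monocyte and macrophage genes also split, with 19 of 36 higher (52.8%), 13 lower (36.1%) and a median of 0.26. Mpeg1, a pore-forming macrophage protein, read 945, 1021 and 1028 in the floxed libraries and 3642, 3799.7 and 3537 in the null libraries (1.87, SE 0.041). Itgam, the CD11b integrin chain of mature myeloid cells, read 8600.4, 9268 and 8900.4 in the floxed libraries and 5308, 5425 and 5313 in the null libraries (−0.74), and the chemokine gene Ccl6 fell by 1.02.

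Defining markers of several other cell types were at 0. The T and NK cell list summed to between 237 and 275.5 normalized counts in the floxed and between 197 and 202 in the null libraries, with Cd3e, Cd3g, Cd8a, Cd8b1 and Ncr1 at 0 throughout. The B cell list summed to between 276.5 and 284 in the floxed and between 1193.5 and 1295 in the null libraries, which was mostly Igll1. The mast cell proteases Mcpt1, Mcpt2, Mcpt4, Cma1 and Cpa3 and the globin genes on the erythroid list were at 0. The megakaryocyte list summed to between 199.7 and 236 in the floxed and between 48.9 and 68.9 in the null libraries, with Gp6 at 0. Its 4 tested members fell, among them the platelet chemokine genes Ppbp (−3.66) and Pf4 (−1.72), and the call of Vwf was lost under 5 settings. In the other 4 lists a single gene held most of the sum. The erythroid list, mostly Tfrc, summed to between 10224.5 and 10820.1 in the floxed and between 11454 and 12942.5 in the null libraries. The dendritic cell list, mostly Tcf4, summed to between 7843 and 8067 and between 10060.6 and 10078. The mast cell and basophil list, mostly Srgn, gave between 11267 and 11496 and between 10644 and 10825, and the stromal and endothelial list, mostly Pecam1, between 2238 and 2310.1 and between 3437 and 3572. Their part in the results was not tested.

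**Figure D3:**
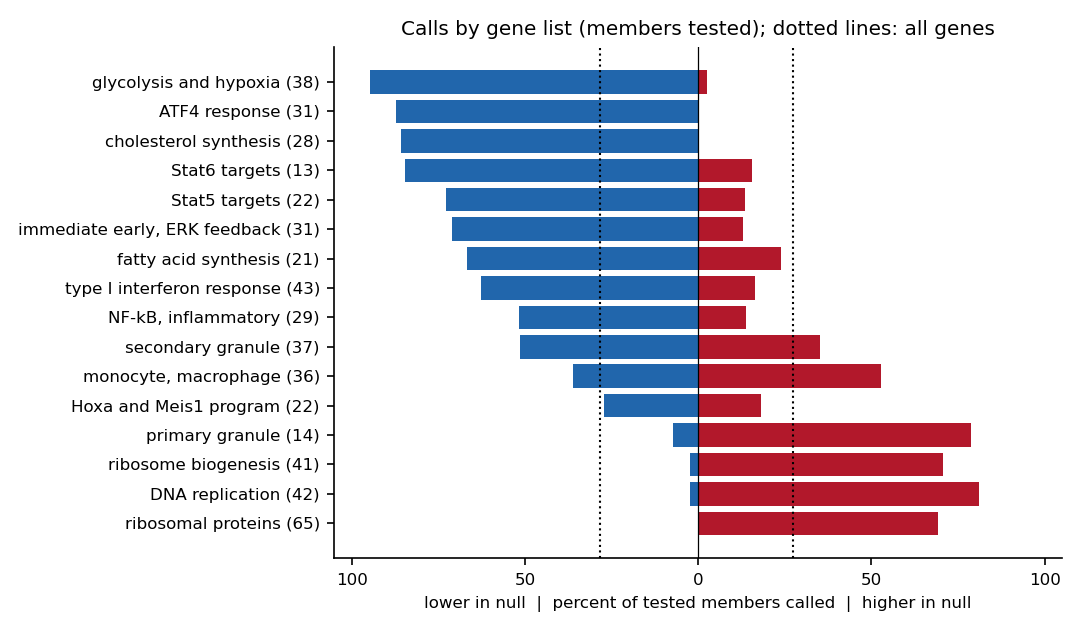
Percent of the tested members of each gene list called lower (left) and higher (right) in the null libraries, with the number tested in brackets; dotted lines mark the shares over all genes, 28.3% lower and 27.4% higher. Glycolysis and hypoxia, ATF4 and cholesterol genes lie mostly to the left, and DNA replication, primary granule and ribosomal protein genes mostly to the right. The list labelled cholesterol synthesis also holds the exporter genes Abca1 and Abcg1.

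Genes of the program that AF10 fusions are known to drive were called in both directions. The list used for it holds homeobox genes and others, such as Bcl2 and Myb, which rose, and Cdk6, which fell. The called homeobox genes named below all fell, but not all rises of the list are named here. Of 22 tested genes of the Hoxa and Meis1 list 6 fell, 4 rose and 12 were not called, 45.5% called against 55.7% of all genes. Hoxa9 read 2739, 2709 and 2730.1 in the floxed libraries and 2534, 2632 and 2744 in the null libraries. Hoxa10 read 2495, 2448 and 2428 in the floxed libraries and 2374, 2326 and 2401 in the null libraries. Meis1, their cofactor, read 503, 532 and 524 in the floxed libraries and 576, 555 and 522 in the null libraries. None of the 3 was called (log2 fold changes −0.05 ± 0.035, −0.05 ± 0.035 and 0.08 ± 0.055, SE; adjusted p = 0.256, 0.188 and 0.206). Hoxa11 fell, with 2034, 2112 and 2077 in the floxed libraries and 1762, 1775 and 1744 in the null libraries (−0.24 ± 0.037, SE; adjusted p = 2.67e-06). Hoxa6 (−0.54), Hoxa3 (−0.33) and Hoxa5 (−0.25) were called lower as well (adjusted p = 0.00373, 0.0123 and 0.00301), and these 3 were named after their values were seen and were not recomputed under the other settings. The cofactor gene Pbx3 fell too, with 563, 541 and 551 in the floxed libraries and 267, 262 and 273 in the null libraries (−1.05, SE 0.062), and the transcription factor gene Myb rose by 0.20. Of the loci joined in the fusion, Picalm, which encodes CALM, read 7260.4, 7412 and 7226 in the floxed libraries and 4978, 5254 and 5104 in the null libraries (−0.51, adjusted p = 5.32e-15). Mllt10, which encodes AF10, fell by 0.10 (adjusted p = 0.0135), a call lost without null 2 (adjusted p = 0.0768). The counts do not separate transcripts of the fusion from those of the normal genes.

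The authors' deposited table lists genes that, by its headings, were lower when each fusion was switched off. Of the 359 genes that the authors' deposited table gives as down with CALM-AF10 off, 281 were tested here. In the null libraries 158 of these, 56.2%, were lower and 65, 23.1%, higher, with a median of −0.37, and 25.6% fell and 6.41% rose at least 2-fold. Of the 966 genes of the authors' deposited table for MLL-AF10 off, 890 were tested, 308 lower and 337 higher, with a median of 0.03 and 11% lower by at least 2-fold. Of the 887 genes for MLL-AF9 off in the authors' deposited table, 860 were tested, 139 lower and 426 higher, with a median of 0.10 and 1.4% lower by at least 2-fold. All genes tested had 28.3% lower, 27.4% higher, 5.63% lower by at least 2-fold and 1.67% higher by at least 2-fold. The differences between the lists were not tested.

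Of the 653 genes that fell at least 2-fold in the null libraries 72, or 11%, were on the CALM-AF10 list of the authors' deposited table, as were 18 of the 194 that rose at least 2-fold, or 9.28%. Of all tested genes 2.42% were on it. Of the 25 genes that the authors' deposited table gives as common to the 3 fusions 10 fell and 5 rose here, and 2 fell at least 2-fold, Cdkn2c and the ecto-nucleotidase gene Nt5e (−1.33). Hoxa9, Hoxa10 and Meis1 were not called, as given above. The list common to the AF10 fusions in the authors' deposited table, with 125 of 142 genes tested, had 69 lower and 35 higher and a median of −0.37.

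**Figure D4:**
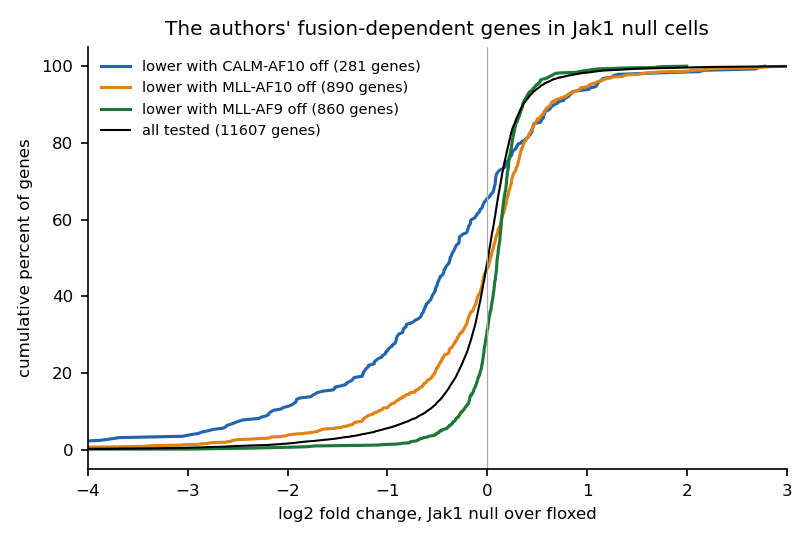
Cumulative percent of genes by log2 fold change of null over floxed, for the 3 lists of the authors' deposited table and for all 11607 genes tested. The curve of the 281 CALM-AF10 genes lies to the left of all genes over the falls and below it at the largest rises, that of the 890 MLL-AF10 genes less so, and that of the 860 MLL-AF9 genes reaches a median of 0.10.

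Neighbouring genes on chromosome 2 were lower together in the null libraries. In 10-megabase windows of mm9 with at least 10 genes of a mean of 100 counts or more, the 8 windows from 50000001 to 130000000 had median log2 fold changes between −0.43 and −0.12. The other 225 windows lay between −0.15 and 0.24, so that the 2 ranges overlap at their ends. Of 242 such genes in the stretch 167 fell and 24 rose, with a median of −0.30, against 116 and 133 of 447 genes on the rest of the chromosome, with a median of 0.01. The stretch was defined after its values were seen. The 4 tested genes of chromosome Y all fell at least 2-fold. Ddx3y, an RNA helicase gene, read 577, 548 and 574 in the floxed libraries and 259, 274 and 294 in the null libraries. Eif2s3y read 498, 464 and 476 in the floxed libraries and 230.3, 227 and 243 in the null libraries. Their log2 fold changes were −1.03 and −1.04, and those of Kdm5d and Uty −1.22 and −1.33. DNA copy number was not analysed here, and the part of either pattern in the results above was not tested beyond the counts given without these genes.

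**Figure D5:**
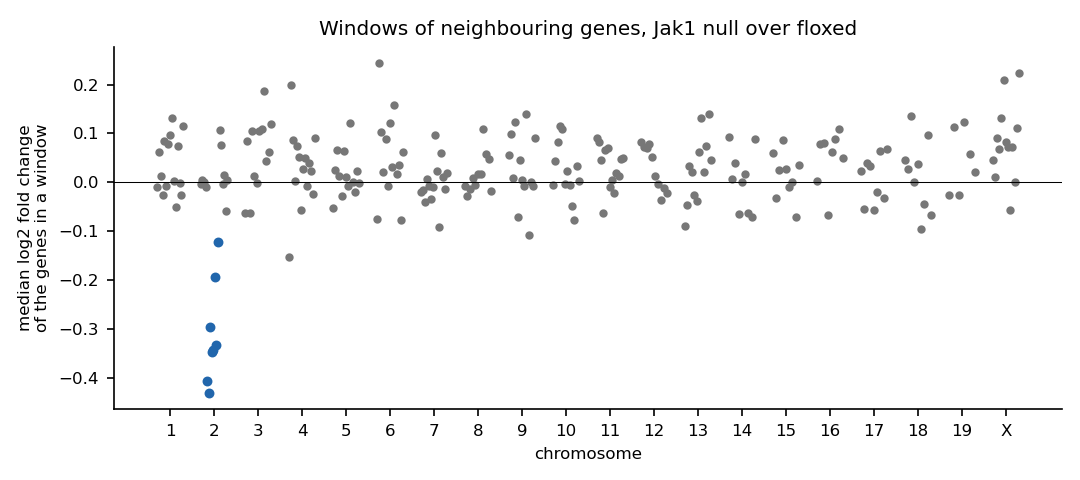
Median log2 fold change of null over floxed for the genes of each 10-megabase window, ordered along each chromosome; blue points are the 8 windows of the chromosome 2 stretch. These points lie between −0.43 and −0.12 and all other windows between −0.15 and 0.24.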

How the data were processed

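Polyadenylated RNA was sequenced after TruSeq library preparation, per the labels. For these 6 libraries the authors deposited gene-level read counts, as whole numbers, in a table whose name says FPKM. Bowtie 0.12.2 and mm9 appear without a step in the submitters' processing notes. The sources used here do not give the counting tool or the annotation. Columns named DMSO were taken as floxed and columns named for the deletion as null.

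Counts were filtered with filterByExpr, TMM-scaled and tested in R 4.3.3 with the quasi-likelihood test of edgeR 4.0.16, after the script was tested on simulated data. Positions are those of the mm9 annotation, with exon lengths over all exons of a gene. Replicates differed beyond sampling noise, with chi-square values of 1.68 to 2.50 per gene between libraries. Fold bounds use a floor of 3 counts over a group, and cover counting error only. Alternatives were DESeq2 1.42.0, RLE factors, no filter, the replicate number as a block and leaving out each library, and 2 chosen after seeing the data, library totals and upper-quartile scaling.

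Members and the 57 gene lists were chosen with earlier results of these data known, and the results of lists not described elsewhere stand among the other observations. Named were the Jak, Stat and Socs genes, Cish, called JAK1 receptors and STAT5 targets, fusion loci, Hoxa9, Hoxa10, Meis1, the 14 largest rises and falls without overlap and with a group mean of at least 200 normalized counts, and up to 5 members of each list by adjusted p. Predicted genes were left out, and a few genes are not reported here. Il6st, Csf2rb, Myc, Insr, Nt5e, Cdh5 and genes marked so in the text were added after their values were seen. Of these only Csn2, Socs3, Bcl6, Vpreb1, Cx3cr1, Adm and P4ha2 were recomputed under the other settings. The other tables of values were not used here, since no source ties the on and off columns of CALM-AF10 to the labels. A planned comparison of CALM-AF10 off against on was therefore not made. The authors' deposited gene lists, which hold symbols with no values, were used.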

Additional observations from a re-analysis of the deposited data

How the results depend on the processing

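The number of called genes was 6467, of which 3185 were higher and 3282 lower. It was 5172 with DESeq2, 5084 of them shared, 6447 with RLE factors, 6728 without a filter on low counts, 6522 with library totals, 6502 with upper-quartile scaling and between 5819 and 6145 when a library was left out. With the replicate block it was 6351. Same-numbered libraries deviated from their group means with correlations of −0.026, 0.011 and −0.029, so the numbers were not taken to pair the samples. The share of calls that were higher was between 46.8% and 51.3%, and the median log2 fold change of all genes was at most 0.02. With DESeq2 the number of members called changed by more than 1.5 times for rises among negative regulators (3), type I interferon genes (4) and G1 regulators (4), and for falls among JAK1 receptors (3). Without a filter 4 STAT6 targets rose. When libraries were left out, rises ranged from 4 to 7 for interferon genes, 3 to 5 for negative regulators, 2 to 4 for NF-kB genes, 0 to 1 for JAK2 receptors and 4 to 8 for G1 regulators, and falls from 3 to 6 for JAK1 receptors. Of 284 named genes, 76 calls over all settings were lost, and Tyk2, not called in any, changed sign in 3 settings: it ranged from −0.018 to 0.014 when a library was left out, with the sign changed without floxed 2 (0.014, adjusted p = 0.821) and without null 3, and was 0.0039 with library totals. The cause of these changes was not tested. Genes with few counts, such as Arg1, Ccr3 and P4ha2 in the null libraries, have folds of low precision.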

Other observations

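Lists of myeloid transcription factors, of stem and progenitor genes and of chromatin genes held calls in both directions. Of 19 myeloid transcription factors tested 7 rose and 7 fell, 36.8% each beside 27.4% and 28.3% of all genes. Beside Irf8, Runx1, a master factor of blood formation, rose by 0.56 on the log2 scale and Zeb2 by 0.82, whereas Ets2 fell by 0.84. Of 18 stem and progenitor genes 10 rose and 4 fell, 55.6% and 22.2%. The polycomb gene Bmi1 rose (0.56) while Prom1 (−2.03) and Ikzf2 (−1.69) fell. Of 40 polycomb and chromatin genes 13 rose and 10 fell. These shares, 32.5% and 25%, were near those of all genes, 27.4% and 28.3%. Kdm5b, which removes methyl groups from histone H3 lysine residues at promoters, read 1185, 1110.3 and 1084 in the floxed libraries and 544, 542 and 547 in the null libraries (−1.05). Kdm6b, a demethylase opposed to polycomb, fell by 0.80, and Ezh2, the polycomb methyltransferase, rose by 0.48. Of 8 histone genes 0 rose and 3 fell (37.5%), and the calls of Hist1h1a and Hist1h4d were lost under 4 settings each. The RNA was polyA-selected.

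Surface and innate immune genes changed in both directions, beside 27.4% higher and 28.3% lower among all genes. Of 22 integrin and adhesion genes 14 fell and 5 rose, 63.6% and 22.7%. Outside the chromosome 2 stretch 11 of 18 fell and 5 rose. Cd9, a tetraspanin, read 695, 632 and 640.2 in the floxed libraries and 243, 295 and 278 in the null libraries (−1.27), and the integrin chain Itgb7 fell by 0.97, while Pecam1 rose (0.63). Of 29 genes of Toll-like receptors and inflammasomes 16 fell and 6 rose, 55.2% and 20.7%. Tlr4, the lipopolysaccharide receptor, was at −1.0, the decoy receptor Il1r2 at −1.78 and Casp1 at 0.76. Of 27 Fc receptor and paired receptor genes 11 rose and 11 fell, 40.7% each, among them falls of Pirb (−1.23) and Fcgr4 (−1.24). Of 13 chemokine genes 7 fell and 2 rose, 53.8% and 15.4%. Of 10 dendritic cell genes 4 rose and 2 fell, 40% and 20%, and the class II genes Cd74 (−0.75) and H2-Ab1 (−0.64) were the falls. Of 6 stromal and endothelial genes 3 rose and 3 fell, 50% each. The rises were those of Cxcl12 (1.58), Pecam1 and Pdgfrb, and the falls those of Lepr (−2.18), Vcam1 (−1.12) and Cdh5 (−0.40), and the call of Vcam1 was lost under 3 settings. Of 6 mast cell and basophil genes 2 rose and 1 fell, 33.3% and 16.7%. The histidine decarboxylase gene Hdc, in the chromosome 2 stretch, was higher by 0.97. Of 3 T and NK cell genes 2 fell, Prf1 (−1.91) and Lck (−0.82), and of 2 erythroid genes Tfrc rose (0.19).

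Lists of metabolic, protein folding and stress response genes held calls in both directions, beside 27.4% higher and 28.3% lower among all genes. Of 63 respiratory chain genes 26 rose and 6 fell, 41.3% and 9.52%, with a median of 0.07. Of 16 heat shock genes 7 rose and 2 fell, 43.8% and 12.5%. Of 20 genes for chaperones of the endoplasmic reticulum 4 rose and 11 fell, 20% and 55%. Of 20 tRNA synthetase genes 2 rose and 7 fell, 10% and 35%. Of 35 lysosome genes 11 rose and 12 fell, 31.4% and 34.3%. Of 19 iron and heme genes 4 rose and 3 fell, 21.1% and 15.8%. Hmox1, which breaks down heme, fell by 0.98, and Hfe, a regulator of iron uptake, rose by 1.07. Of 30 targets of p53 9 rose and 13 fell, 30% and 43.3%, with Xpc, a DNA repair gene, at 0.97 and Gdf15, a stress cytokine, at −1.53. Of 14 PIM and MYC network genes 1 rose and 9 fell, 7.14% and 64.3%, and the MYC antagonist Mxd1 fell by 0.91. Of 11 common reference genes 3 rose and 5 fell, 27.3% and 45.5%, with Pgk1, Gapdh and Actb (−0.47) among the falls. Of 5 estrogen and tamoxifen response genes 2 fell, Esr1 (−1.99) and Greb1 (−0.76), and 0 rose. Esr1, the estrogen receptor gene, was abundant, with 12433, 13760 and 12230 in the floxed libraries and 3177, 3322 and 3200 in the null libraries. The labels name Cre-ER, and whether transcripts of its estrogen receptor part were counted as Esr1 was not tested.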
